A study of Mus musculus with 4 samples.

Results

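Homing receptors place natural killer (NK) cells in tissue and let them leave it. The 8 genes described here are the chemokine receptors *Ccr2*, *Cx3cr1*, *Cxcr3*, *Cxcr4* and *Cxcr6*, the sphingosine-1-phosphate (S1P) receptors *S1pr1* and *S1pr5*, and *Cd69*, which holds S1PR1 off the cell surface. They were chosen by symbol, and every row of the m6A peak list that the authors assigned to the Ensembl gene of one of them was taken. Of 20727 distinct peaks in 12351 genes, 6 belonged to these receptors. *Ccr2* had 3 of them, and *Cx3cr1*, *S1pr5* and *Cd69* had 1 each. No row was assigned to *Cxcr3*, *Cxcr4*, *Cxcr6* or *S1pr1*, but a further peak, listed under the gene *Fyco1*, lay wholly within the last exon of *Cxcr6*.

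The cells were splenic NK cells of wild-type C57BL/6 mice. According to the methods of the study they had been expanded in the animals for 1 to 2 months by a plasmid that expresses IL-15 (pLIVE-IL-15) and then sorted by flow cytometry, so the peaks describe IL-15-expanded and not resting NK cells. Poly(A) RNA was fragmented, and methylated RNA immunoprecipitation sequencing (MeRIP-seq) compared 2 libraries pulled down with an m6A-specific antibody (Synaptic Systems) with 2 input RNA libraries made without antibody. Both groups carry the same genotype and the same IL-15 treatment, so the comparison is of pulled-down over total RNA and not of 2 kinds of cell. Mice in the study were 6 to 10 weeks old, with no age stated for these libraries. Sex and the number of animals behind a library are not given in the sources used here, and nothing states that replicates came from separate mice.

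m6A is a methyl group that METTL3 and METTL14 place on adenosines of messenger RNA, mostly within the consensus DRACH (D stands for any base but C, R for a purine and H for any base but G), of which GGAC and GGACT are favoured forms. Reader proteins bind the mark and alter how long an mRNA lasts and how well it is translated. Chemokine receptors and S1P receptors are both G protein-coupled receptors: the former read chemokines released by inflamed or lymphoid tissue, and the latter read the lipid S1P, which is abundant in blood and lymph and draws lymphocytes out of tissue. Activated lymphocytes display CD69, which binds S1PR1 and brings it into the cell, so that they stay where they are. S1PR5 is the S1P receptor that NK cells are known to use to leave bone marrow and lymph nodes.

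The sequences that carry the preferred motif within the peaks are shown first. Each is a window of the mRNA strand, 5′ to 3′, in GRCm38, with GGAC or GGACT in capitals and 10 flanking bases on each side. Outside *Cxcr6*, only the *S1pr5* and *Cd69* peaks held GGAC. The positions after the stop codon that follow refer to the first capital.
Cxcr6 site at 540 nt, plus strand, chr9:123811521-123811545: cagcaatatgGGACTgaaaacaggc
Cxcr6 site at 640 nt, plus strand, chr9:123811621-123811645: aaatacaagaGGACTctggtggctt
S1pr5 site at 558 nt, minus strand, chr9:21243355-21243378: acagagctgtGGACaaaggtaagc
S1pr5 site at 633 nt, minus strand, chr9:21243280-21243303: tccagagtgtGGACaggttcttca
Cd69 site at 745 nt, minus strand, chr6:129267503-129267526: atctctgtcaGGACacaccctgtg

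The 3 peaks of *Ccr2* and the peak of *Cx3cr1* held no GGAC, so the DRACH site nearest the centre of each is shown instead, in capitals. The first *Ccr2* peak is the only one in coding sequence and its site lies before the stop codon, whereas the others are in the 3′ UTR.
Ccr2 peak 1, plus strand, chr9:124105785-124105809: ccacaccgtaTGACTacgatgatgg
Ccr2 peak 2, plus strand, chr9:124108396-124108420: aataaaatcaAGACTggaaacttca
Ccr2 peak 3, plus strand, chr9:124108904-124108928: acaaaggaacAGACAacttgagagt
Cx3cr1 peak, minus strand, chr9:120048944-120048968: ggctgtcctgAAACTctctgtgtag

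**Figure D1:**
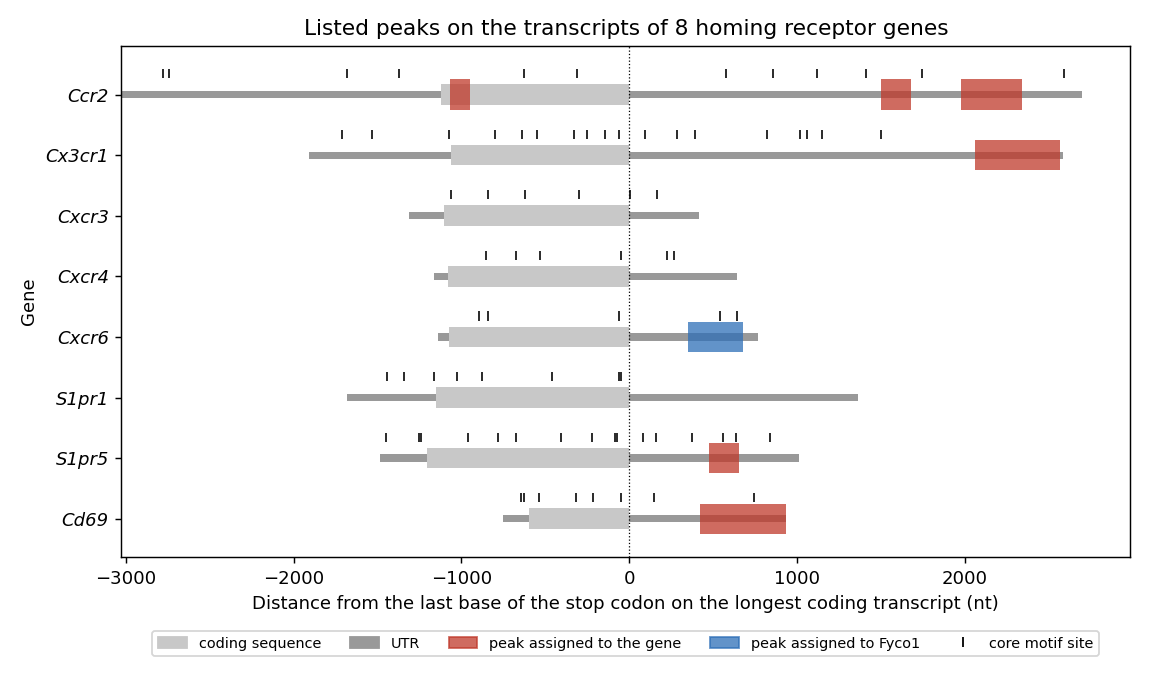
The longest coding transcript of each of the 8 genes is drawn to scale, with distance in nt from the last base of the stop codon on the horizontal axis, coding sequence as thick grey bars, UTRs as thin bars, peaks as coloured boxes and GGAC sites as ticks above. The peaks of *Ccr2* (the last 2), *Cx3cr1*, *Cd69*, *S1pr5* and *Cxcr6* sit in the 3′ UTR away from the stop codon, and most ticks lie outside the boxes.

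Each peak in the list has 1 fold enrichment (immunoprecipitate over input reads) and 1 peak-calling p-value, given as its log10, for all 4 libraries together. There is no value per library, so no replicate error can be attached to any value that follows, no test between groups was possible and the sequencing depth behind each value is unknown. A listed peak means that RNA of that stretch was pulled down beyond input, and a gene without one may be unmethylated, weakly methylated or too little expressed, which cannot be told apart.

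With 4 of 8 (50%), these receptors had a listed peak about as often as protein-coding genes in general, of which 46.3% had one. The 6 peaks had fold enrichments between 1.28 and 3.13, with a median of 1.65 against 2.66 over the whole list. None reached a fold enrichment of 5, the value used in the study to pick genes for pathway analysis, whereas 34.6% of all peaks did. All 6 had a p-value under 0.001, as did 61.5% of all peaks, and their median log10 p was -25.0 against -4.1 for the list. Apart from *Cx3cr1*, whose fold of 3.13 was above the list median, the receptor peaks had folds below that median, and all 6 had a log10 p below the median of the list. The list gives no read counts, so the coverage behind these values was not examined.

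*Ccr2* (ENSMUSG00000049103, chr9:124101950-124113557, plus strand) encodes the receptor for the monocyte-attracting chemokine CCL2. Its longest coding transcript has 2 exons and 5728 nt, of which 2701 nt are 3′ UTR. The first peak (chr9:124105737-124105857) covers 121 nt of coding sequence in exon 2, from codon 18 to codon 58. Enrichment there was 1.28-fold and the log10 p was -5.6, both the weakest among the 6 peaks.

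The other peaks of *Ccr2* lie far into the 3′ UTR of the same exon. Peak 2 (chr9:124108309-124108489) had an enrichment of 1.37-fold at a log10 p of -9.78, and its centre is 1593 nt past the stop codon. Peak 3 (chr9:124108788-124109147) had an enrichment of 2.0-fold at a log10 p of -49.0, the smallest p-value among these genes, and is centred 2161 nt past the stop. The peaks are 298 nt apart and differ in size as well, with 181 nt in peak 2 and 360 nt in peak 3. Significance thus became stronger from the coding peak to the last peak of the transcript, and so did fold enrichment. At least 3 peaks were listed for 2049 genes, 16.6% of those with any.

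The *Ccr2* peaks also separate its annotated isoforms. All 4 coding transcripts contain peak 1. Peak 2 is missing from the shortest, of 2265 nt, which ends at a distant exon. Peak 3 is missing from that transcript and from the one of 2999 nt, whose 3′ end lies 61 nt beyond the end of peak 2. The transcript of 3515 nt ends inside peak 3, and 353 of the 360 nt of the peak lie in it. The longest form, of 5728 nt, contains all 3 peaks in full. Which of these isoforms the NK cells expressed cannot be read from the peak list.

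*Cx3cr1* (ENSMUSG00000052336, chr9:119901616-120069879, minus strand) encodes the receptor for fractalkine, the ligand CX3CL1, and is known as a marker of mature NK cells and of monocytes. It had 1 peak (chr9:120048701-120049208), with an enrichment of 3.13-fold at a log10 p of -36.3. That is the highest fold enrichment of any homing receptor here, and 54.9% of all listed peaks had a lower one. The peak covers 508 nt of the last exon, or 19.6% of the 2587 nt 3′ UTR, and its centre lies 2315 nt past the stop codon. It stops 18 nt short of the 3′ end shared by the coding transcripts of 3753 and 4493 nt. Another, of 3156 nt, ends at a distant exon and holds none of it.

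More of the sequence under the *Cx3cr1* peak is repetitive than under any other receptor peak. The genome sequence marks 75.2% of its bases as repeats, against a highest share of 37.6% for the others, in *Ccr2* peak 2. Of its 453 distinct stretches of 31 nt, 11.9% also occur in transcripts of other genes, 120 genes in all, whereas none of the stretches from the other receptor peaks do. How reads that match several places were counted is not given in the sources used here, and their part in this fold enrichment was not tested. The DRACH window printed above for the *Cx3cr1* peak lies entirely in masked sequence. That of *Ccr2* peak 2 has 16 of its 25 bases masked, and those of *Ccr2* peaks 1 and 3 have none.

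*Cxcr6* (ENSMUSG00000048521, chr9:123806475-123811760, plus strand) encodes the receptor for CXCL16 and is known for keeping NK cells in the liver. No row was assigned to it. However, a peak at chr9:123811344-123811671 had all of its 328 nt in exon 2 of 2 of *Cxcr6*, in the 3′ UTR of both coding transcripts, and the authors' table lists it under *Fyco1*. *Fyco1* (ENSMUSG00000025241, chr9:123789500-123851899) runs on the opposite strand across the whole of *Cxcr6*, and the peak touches 0 nt of *Fyco1* exons. The strand from which reads came is not given for these libraries, so whether the RNA came from the strand of *Cxcr6* or that of *Fyco1* cannot be told apart.

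The peak in *Cxcr6* had an enrichment of 1.48-fold at a log10 p of -8.59, both within the range of the 6 assigned peaks. Its centre lies 516 nt past the stop codon, it spans 42.7% of the 3′ UTR, and it ends 85 nt before the nearer annotated 3′ end. Both GGAC sites of the *Cxcr6* 3′ UTR lie in it and both are GGACT, as printed above. *Fyco1* had 1 other row, at chr9:123851600-123851839, with an enrichment of 3.52-fold at a log10 p of -2.29, of which 62 nt are *Fyco1* exon. Such assignments were uncommon: of 20706 peaks with a known gene, 600 lay on no exon of it, 320 (1.55%) of these lay on an exon of another coding gene, and for 204 that gene was on the opposite strand.

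*Cxcr3* and *Cxcr4* had no peak by assignment or by overlap. *Cxcr3* (ENSMUSG00000050232, chrX:101731535-101734269, minus strand), the receptor for the interferon-induced ligands CXCL9 and CXCL10, has a transcript of 1731 nt with 6 GGAC sites. The nearest listed peak is 47214 nt away, in *Ogt*. *Cxcr4* (ENSMUSG00000045382, chr1:128588199-128592293, minus strand), the receptor for CXCL12 that retains cells in bone marrow, also has 6 GGAC sites, in 1805 nt. Its nearest peak is 178306 nt away, in *Gm26686*. Their 3′ UTRs, of 416 nt for *Cxcr3* and 644 nt for *Cxcr4*, are the shortest among the 8 genes, and the longest are those of *Ccr2* and *Cx3cr1*.

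Of the S1P receptors described here, *S1pr5* had a peak and *S1pr1* had none. The 3′ UTR of *S1pr1* is the longer, at 1362 nt against 1014 nt. *S1pr5* (ENSMUSG00000045087, chr9:21242912-21248443, minus strand) had 1 peak at chr9:21243269-21243447, with an enrichment of 1.39-fold at a log10 p of -13.8. It covers 179 nt of exon 3 of 3, or 17.7% of the 1014 nt 3′ UTR, and is centred 568 nt past the stop codon. With 357 nt between the peak and the annotated 3′ end, it is the 3′ UTR peak farthest from such an end. Of the 6 GGAC sites in its 3′ UTR, 2 lie in the peak.

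*S1pr1* (ENSMUSG00000045092, chr3:115710433-115715072, minus strand), the receptor that carries T and B cells out of lymphoid tissue and that CD69 restrains, had no peak. Its 3046 nt transcript has 8 GGAC sites, of which 3 are in the 5′ UTR, 5 among the codons and 0 in the 1362 nt 3′ UTR, which is the only 3′ UTR of the 8 without GGAC. The nearest listed peak begins 406 nt beyond the gene, in *Gm9889* (chr3:115715478-115716727). That peak had an enrichment of 9.48-fold at a log10 p of -1.69, a pair of values that 845 peaks of the list share.

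*Cd69* (ENSMUSG00000030156, chr6:129267325-129275436, minus strand) had 1 peak (chr6:129267325-129267835) with an enrichment of 1.92-fold at a log10 p of -48.0. It covers 511 nt, 54.6% of the 936 nt 3′ UTR, and stops exactly at the annotated 3′ end of the 1687 nt transcript, with 0 nt between them. No other receptor peak covers as much of its 3′ UTR. The other coding transcript, of 560 nt, ends before the peak and holds none of it. A peak was thus listed for *Cd69* and none for *S1pr1*. Of all protein-coding genes 46.3% had a peak, and no link between these genes was tested.

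By position, 5 of the 6 peaks (83.3%) were centred in the 3′ UTR, against 56.5% of the 15721 peaks for which a coding transcript gave a position. None was centred within 200 nt of the stop codon, where 22.3% of placed peaks lie. Along the 3′ UTR, from 0% at the stop codon to 100% at the end, the centres lay at 56.0% for *S1pr5*, 59.0% and 80% for *Ccr2*, 72.8% for *Cd69* and 89.5% for *Cx3cr1*. The peak in *Cxcr6* was at 67.1%. The median for all 3′ UTR peaks was 58.9%, so *S1pr5* and *Ccr2* peak 2 lie near it and the others farther along.

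A group of 3 peaks meets the end of an annotated transcript: peak 3 of *Ccr2*, that of *Cx3cr1* and that of *Cd69* each end within 50 nt of one. Over the list, 3635 of 8881 3′ UTR peaks (40.9%) did so. The same 3 peaks have the smallest p-values and the highest folds of the 6, and they are also the longest. Each contains AATAAA, the signal that directs cleavage and polyadenylation, which is shown in capitals below for these peaks. Which of these copies is used was not tested. Of the 26 bases in each window, the genome sequence masks none for *Ccr2* peak 3. In the order shown it masks 19 and 0 for *Cx3cr1*, and 11 and 23 for *Cd69*. *Ccr2* peak 2 and the peak in *Cxcr6* hold 1 copy each as well.
Ccr2 peak 3, 2271 nt past the stop, plus strand, chr9:124109067-124109092: tgatttagaaAATAAAccaatgctct
Cx3cr1, 2418 nt past the stop, minus strand, chr9:120048837-120048862: aggcttagtcAATAAAtgttttattt
Cx3cr1, 2556 nt past the stop, minus strand, chr9:120048699-120048724: taattctgtcAATAAAcattggtttc
Cd69, 843 nt past the stop, minus strand, chr6:129267403-129267428: tcccatgtgcAATAAAgtgtttatat
Cd69, 915 nt past the stop, minus strand, chr6:129267331-129267356: tgtatgtgaaAATAAAagaatagata

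AATAAA is common where peaks end near a 3′ end, and 65.1% of all such 3′ UTR peaks held it. Among placed peaks within 20% of the same exonic length, it occurred in 40.6% for *Ccr2* peak 3, 50% for *Cx3cr1* and 49.8% for *Cd69*. A copy of the signal in these windows is thus unremarkable and is given as a description of where the peaks lie.

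The GGAC motif was scarce in the receptor peaks. On the mRNA strand the longest transcripts of the 8 genes hold 79 GGAC sites. *Cxcr3* and *Cxcr4* (6 each), *Cxcr6* (5) and *S1pr1* (8) had no assigned peak, so their sites could not fall in one. The 6 assigned peaks cover only a small part of the other transcripts, and 3 sites fell in them, 2 in *S1pr5* and 1 in *Cd69*. In 1860 nt of peak that is 1.61 per kb, against 4.03 per kb in all placed peaks and 3.27 per kb in 3′ UTR peaks. On the opposite strand the same stretches hold 4. The broader DRACH motif, by contrast, had 38 sites in them, or 20.4 per kb, close to the 20.2 per kb of all placed peaks. With 6 peaks, a shift of a few sites would move the GGAC rate a great deal.

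Length makes the lack of GGAC more or less ordinary from peak to peak. Of placed peaks within 20% of the same length, 81.5% held a GGAC for *Cx3cr1* and 70.0% for *Ccr2* peak 3, and neither of these did. For the short *Ccr2* peak 1 and peak 2, 40.5% and 47.9% of like peaks held the motif. The peaks that do hold it compare with 47.9% for *S1pr5*, 81.5% for *Cd69* and 68.2% for *Cxcr6*. A DRACH site was present in all 7 peaks and in 86.5% to 99.8% of peaks of like length. *Ccr2* has 6 GGAC sites in its 3′ UTR and *Cx3cr1* has 8, and all of them lie outside the peaks. The site of *Ccr2* nearest to its peaks has its A at 1745 nt, between peak 2 and peak 3. The last site of *Cx3cr1*, with its A at 1501 nt, is well before its peak.

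Base composition differed among the peaks too. *Ccr2* peak 2 had the lowest GC content (26.0%), *Ccr2* peak 3 and *Cd69* had 34.2% each, *Cx3cr1* had 44.1%, *Ccr2* peak 1 had 45.5% and *S1pr5* had the highest (48.0%). The peak in *Cxcr6*, which like that of *S1pr5* holds 2 GGAC sites, had 38.7%, below *Cx3cr1* and *Ccr2* peak 1, which hold none.

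**Figure D2:**
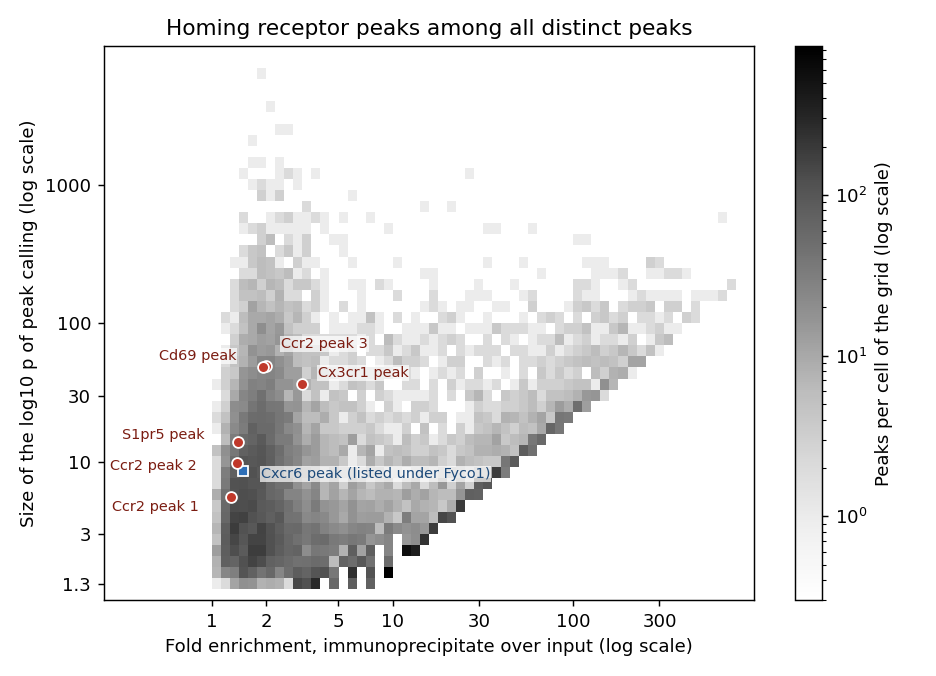
Each cell of the grey grid counts distinct peaks by fold enrichment (horizontal, log scale) and by the size of the log10 p (vertical, log scale, larger is more significant), with the 6 receptor peaks as red circles and the peak in *Cxcr6* as a blue square. The receptor peaks lie between 1.28 and 3.13 in fold enrichment, all but *Cx3cr1* below the list median of 2.66, and the peaks of *Cd69*, *Ccr2* (peak 3) and *Cx3cr1* rise well above the others in significance.

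The plot of fold enrichment against significance shows where the receptors stand among peaks of like fold. Of the 2887 peaks within 10% of the fold enrichment of *Ccr2* peak 3, 92.7% were less significant, and the share was 92.6% of 3077 for *Cd69* and 91.3% of 1215 for *Cx3cr1*. For *S1pr5* it was 88.7%, and for *Ccr2* peak 2 it was 82.1%. The coding peak of *Ccr2* was more ordinary, with 67.7% of like peaks less significant. The peak in *Cxcr6* had 73.1%. All 7 peaks have a pair of fold and p-value that no other row of the list has.

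The other genes of chemokine and S1P homing give the setting. Of 68 such genes, 49 (72.1%) had a listed peak, against 46.3% of all protein-coding genes. Of the 68, 40 had a peak with a p-value under 0.001, as did 34.0% of protein-coding genes, and 19 had one enriched at least 5-fold, as did 20.1%. These shares are a description, since the list was chosen with results known. The genes of receptor coupling and of migration signalling all had a peak, as did the remaining S1P receptors, and the other groups had one in part or, for the atypical receptors, not at all. Among the 14 remaining chemokine receptors 9 had a peak, as did 3 of 3 remaining S1P receptors and 0 of 4 atypical chemokine receptors, which take up chemokines without signalling (*Ackr1* to *Ackr4*). With a p-value under 0.001, 5 of these 14 chemokine receptors and 1 of the 3 S1P receptors had a peak. *Ccr6*, *Ccr7*, *Ccr8*, *Ccr10* and *Cxcr1* had none.

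*Ccr3*, a receptor for eotaxins, lies near *Ccr2* on chromosome 9. It had 6 peaks, the most significant in its 3′ UTR with an enrichment of 1.61-fold at a log10 p of -58.6. Of the *Ccr2* peaks, peak 3 came nearest to it in p-value (2.0-fold at a log10 p of -49.0), while peaks 1 and 2 had -5.6 and -9.78. Low folds with small p-values also occurred in other genes named below, such as *Rac2* and *Ccl5*.

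By contrast, the chemokine receptors with a fold enrichment of 5 or more had log10 p no stronger than -8.96. *Ccr4* had an enrichment of 37.9-fold at a log10 p of -8.96, for a peak that spans 14601 nt of the genome and 2805 nt of coding transcript exon. *Cxcr2*, known from neutrophils, had 13.3 with -7.3. *Cxcr5*, which leads cells to B cell follicles, had 9.48 with -1.69, the pair of values shared by 845 peaks.

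Among the S1P receptors other than *S1pr5* and *S1pr1*, *S1pr4* had the most significant peak, with an enrichment of 1.63-fold at a log10 p of -12.3 in the 3′ UTR, close to the values of *S1pr5*. *S1pr3* had peaks of 13.3 and 7.59 with log10 p of -2.5 and -1.77, and *S1pr2* had 2.21 with -1.95. The pair of 13.3 with -2.5 is shared by 367 peaks of the list. *S1pr1* was thus the only gene of the 5 S1P receptors without a peak. With a p-value under 0.001, however, *S1pr2* and *S1pr3* had no peak either.

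Of the 7 genes that make, export and break down S1P, 4 had a peak. The S1P phosphatase gene *Sgpp1* had a peak of 116 with a log10 p of -26.6, off its longest coding transcript, and a second of 2.61 with -15.4. The S1P lyase gene *Sgpl1* had 19.0 with -3.75 in the 5′ UTR and 1.58 with -17.4 in the 3′ UTR. The first pair of values of *Sgpp1* is shared by 6 peaks of the list and the first of *Sgpl1* by 138. The exporter *Spns2* had 3.03 with -16.3, in a peak that also touches an exon of *Mybbp1a*. *Sphk1*, which makes S1P, had none, nor had *Mfsd2b* or *Plpp3*. *Sphk2*, which also makes S1P, had 3 peaks, the most significant of 2.56 with -10.9.

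All 14 genes that couple these receptors to G proteins or shut them off had a peak, 13 of them with a p-value under 0.001. *Gnai2*, the inhibitory G protein subunit that transmits chemokine signals, had peaks of 6.32 with a log10 p of -161, 1.68 with -95.6, and 26.6 with -10.7, the last on no coding exon. *Rgs1*, which ends that signal, had 5 peaks, the most significant with an enrichment of 1.39-fold at a log10 p of -285. Its highest fold was 8.53 with -2.75, a pair of values shared by 18 peaks. The arrestin gene *Arrb2* had 1.78 with -84.2.

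Other genes of this group reached a fold enrichment of 5 at larger p-values. They were *Grk2* (6.16 with a log10 p of -7.69) and *Grk5* (15.2 with -4.44), which phosphorylate active receptors, *Arrb1* (17.1 with -3.33), and the G protein subunit gene *Gng2* (11.4 with -2.09). The values of *Grk2*, *Grk5* and *Gng2* belong to the 5′ UTR. The pair of values of *Gng2* is shared by 532 peaks of the list and that of *Arrb1* by 178. More significant peaks of lower fold were listed for *Grk2* (1.18 with -9.06), *Grk5* (1.93 with -8.14) and *Gng2* (1.67 with -11.6).

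All 8 genes of migration signalling had a peak. *Coro1a*, an actin regulator, had the most significant, 2.57 with a log10 p of -554, in a peak that also touches an exon of *Bola2*, and *Rac2*, the GTPase that drives the leading edge, had 1.79 with -343. *Dock2*, which activates RAC, had 1.48 with -41.5. Folds of at least 5 in this group had log10 p of -2.37 at *Coro1a* (7.59), -1.63 at *Dock2* (5.69) and -2.0 at *Elmo1* (6.64), and *Elmo1*, the partner of *Dock2*, had another of 7.59 with -1.64. In that order, these pairs of values are shared by 57, 200, 96 and 9 peaks of the list.

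Of 6 transcription factors that set homing receptor levels, 4 had a peak. *Klf2*, known for driving *S1pr1*, had peaks of 2.37 with a log10 p of -630 and 2.31 with -177. *Tbx21*, which is needed for *S1pr5* in NK cells, had 2.22 with -120. *Zeb2*, a factor of NK cell maturation, had 2.45 with -20.9, and of its 4 peaks enriched at least 5-fold the highest had 30.3 with -6.35, on no coding exon. *Foxo1*, which acts upstream of *Klf2*, had 11.4 with -2.09, also on no coding exon. That pair of values is shared by 532 peaks of the list, and the *Zeb2* pair of 30.3 with -6.35 by 69. The most significant *Foxo1* peak had 1.69 with -4.26 in the 3′ UTR. *Zfp683* and *Prdm1*, which encode the residency factors HOBIT and BLIMP1, had none. *S1pr1* had no peak and *Klf2* had 2, and both *S1pr5* and *Tbx21* were listed. Of all protein-coding genes 46.3% had a peak, and no link between the peaks of a factor and its target was tested.

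Of 12 chemokine ligands 7 had a peak. *Ccl5*, made in quantity by NK cells, had the most significant peak of the 68 genes, with an enrichment of 1.76-fold at a log10 p of -1480. *Xcl1*, which attracts dendritic cells, had 1.81 with -438, and *Ccl3* had 2.18 with -240. *Cxcl9* had 7.59 with -1.34 and a more significant peak of 2.3 with -6.04. *Cxcl12*, the ligand of CXCR4, had 9.48 with -1.69 and 7.59 with -2.0. The *Cxcl9* pair of 7.59 with -1.34 is shared by 16 peaks of the list, and the *Cxcl12* pairs by 845 and 15. *Cxcl16* and *Cx3cl1*, the ligands of CXCR6 and CX3CR1, had none, nor had *Cxcl10*, *Cxcl11* or *Ccl7*.

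**Figure D3:**
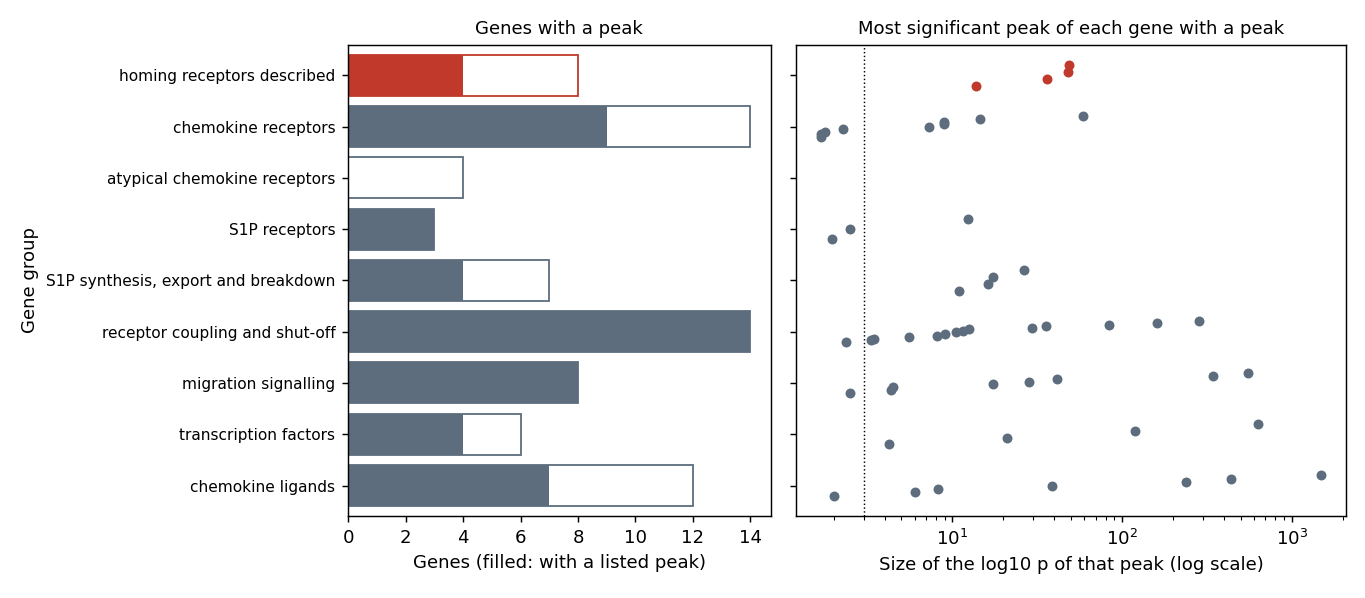
Left, number of genes in each homing group (open bar) and the number with a listed peak (filled), with the 8 homing receptors in red. Right, the size of the log10 p of the most significant peak of each gene with one (log scale), where the dotted line marks a p-value of 0.001. The 4 receptors with a peak all lie to the right of that line, and 3 of the 4 transcription factors with a peak reach further than *S1pr5*.

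The identity of the sorted cells was compared with marker genes, since *Ccr2* and *Cx3cr1* are also known in monocytes and macrophages. All 8 NK markers (*Ncr1*, *Klrb1c*, *Klrk1*, *Klrd1*, *Eomes*, *Tbx21*, *Prf1* and *Gzmb*) had a peak, 22 in all, against 46.3% of all protein-coding genes, with lowest log10 p from -25.0 for *Ncr1* to -165 for *Gzmb*. So did all 5 monocyte and macrophage markers, with lowest log10 p of -322 for *Csf1r*, -143 for *Lyz2*, -49.0 for *Cd14*, -35.3 for *Adgre1* and -16.6 for *Ly6c2*. A peak was listed for 3 of 6 T cell markers but not for *Cd4*, *Cd8a* or *Cd5*, for 3 of 5 B cell markers, for 2 of 3 neutrophil markers (*S100a8* at a log10 p of -306 and *S100a9* at -124) and for 2 of 3 red cell markers (*Hbb-bs* at -2440 and *Hba-a1* at -788). Among the T cell markers the lowest values ran from -6.35 for *Cd3e* to -46.8 for *Cd3g*, and among the B cell markers from -9.11 for *Cd79a* to -27.6 for *Cd79b*. A peak is no measure of how much RNA was present, and in a bulk sample fewer cells of a type and less RNA per cell cannot be told apart. The part of myeloid RNA in the *Ccr2* and *Cx3cr1* peaks was not tested.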

How the data were processed

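MeRIP-seq was done on 2 m6A immunoprecipitates and 2 input RNA libraries of mouse splenic NK cells. According to the labels and the methods of the study, reads were trimmed by the authors and mapped to GRCm38 (HISAT2), and exomePeak and ChIPseeker served to call and annotate peaks. The deposited list is 1 set of peaks for all libraries, with 0 columns per sample. It holds the authors' fold enrichment, a ratio of immunoprecipitate to input, and a score that is the log10 of the unadjusted peak-calling p-value. Depth is unknown.

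Of 20751 rows, 24 exact repeats were dropped. Peaks were placed on the longest coding transcript (GENCODE M21 models of GRCm38) by the centre of their exonic part. Motifs were searched on the mRNA strand, and the opposite strand was counted as an alternative. Sequences come from the GENCODE transcripts and matched the RefSeq genome of the same build. Python 3.11.15, pandas 2.3.3 and pysam 0.24.0 were used, and placement was tested on simulated data. The receptors and gene lists were chosen with earlier results of these data known, so every comparison with the whole list is a description without a test. Pathway genes named for a peak are those with a fold enrichment of at least 5 and at most the 3 of lowest p-value in each group. *Sphk2* was added beside *Sphk1*. Some genes of the lists are counted in their groups but not reported here by name.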

Additional observations from a re-analysis of the deposited data

How the results depend on the processing

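The values were recomputed for 7 results under 24 alternatives. Of these, 6 were marked as moving the result and 18 were not. Some of the 18 changed the value as well, as the counts below show. With peaks under 2-fold left out, the receptors with a peak dropped from 4 to 2 and their peaks from 6 to 2 (*Ccr2* peak 3 and *Cx3cr1*). Over the whole list, 36.1% of peaks had a fold below the 2.0 of *Ccr2* peak 3. Instead of 0 peaks at a threshold of 5, there were 2 at a threshold of 2 and 1 at a threshold of 3. The share of all genes at 2-fold, and that of all peaks at 3-fold, was not computed. The gene counts at 2-fold and the peak count at 3-fold therefore show nothing particular to these genes. The motif rate of 1.61 per kb for GGAC became 0.0 for GGACT and 20.4 for DRACH. Assignment by exon overlap on either strand, which adds the peak in *Cxcr6*, gave 5 receptors and 7 peaks. The share in the 3′ UTR was 83.3% under each of its alternatives. The homing genes with a peak numbered 33 at a fold enrichment of at least 2 and 40 at a p-value under 0.001, against 49 of 68 as listed. Of all protein-coding genes, 34.0% had a peak at that p-value and 46.3% had any. No paired analysis was possible because the list has no value per sample, and for the same reason no replicate was left out. With unknown depth, a gene without a peak cannot be called unmethylated.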
